A study of Mus musculus with 12 samples.

Results

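Genes that encode cytosolic ribosomal proteins were examined in the cortical interneurons (CINs) and the other cortical cells (non-CINs) of newborn mice. There are 56 genes in the list, of 21911 protein-coding genes with a main transcription start site (TSS), and they were chosen by name and not by any measured value. Of the 56 genes, 31 encode proteins of the large (60S) ribosomal subunit outside its stalk, 3 encode the P-stalk proteins (*Rplp0*, *Rplp1* and *Rplp2*) and 22 encode proteins of the small (40S) subunit. For each gene, the peak over the promoter was read from every list of H3K27ac and H3K27me3 peaks. The promoter was taken as 1 kb upstream to 100 bp downstream of the main TSS in the mm10 genome.

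Ribosomal proteins assemble with ribosomal RNA into the particles that translate mRNA, and every growing cell needs nearly all of them at the same time. Their genes are therefore often used as a housekeeping reference. Their mRNAs typically begin with a run of pyrimidines, the terminal oligopyrimidine tract, through which their translation responds to mTOR signalling. Acetylation of histone H3 at lysine 27 (H3K27ac) marks active promoters and enhancers, whereas trimethylation of the same residue (H3K27me3) is laid down by Polycomb repressive complex 2 and marks genes that are kept silent.

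The cells came from the cortices of *Gad67-GFP* heterozygotes at postnatal day 2, pooled over litters, so a replicate is a pool of animals and not a single mouse. Sorting on GFP gave GFP+ cells, called CINs, and GFP- cells, called non-CINs, and all of them carry the GFP allele at *Gad67* on 1 chromosome. The non-CIN fraction is defined only by the absence of GFP and holds excitatory neurons, glia and other cells. Native ChIP, in which chromatin is not cross-linked, was performed for each mark in 2 replicates of each population, which gives 8 peak lists, and the 4 input samples served as controls when the authors called peaks. The lists held between 36662 and 62505 peaks, and the depth behind them is unknown here, so a missing peak means only that none was called.

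The sort was checked on marker genes. The interneuron markers *Gad1*, *Dlx1*, *Dlx2*, *Dlx5*, *Dlx6* and *Slc32a1* had a promoter H3K27ac peak in both CIN lists and in neither non-CIN list, *Gad2* had a peak in both CIN lists and in non-CIN replicate 2, and *Lhx6* had none in any list. The markers of the oligodendrocyte lineage and astrocytes had an H3K27ac peak in every list (5 of 5), the 6 markers of excitatory neurons had between 2 and 4, those of microglia had 1 of 3 in replicate 2 of each population and those of endothelium had 0 of 3. The part of other cell types in the values below was not tested.

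Nearly all ribosomal protein genes carried H3K27ac over the promoter in both populations. A peak was called at 55 of 56 genes in CIN replicate 1, 53 in CIN replicate 2, 55 in non-CIN replicate 1 and 54 in non-CIN replicate 2. Among all protein-coding genes, the shares with a promoter peak in these lists were 51.9%, 47.3%, 50.7% and 46.3%. In all 4 lists together, 53 of the 56 genes (94.6%) had a peak, against 43.9% of all genes.

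**Figure D1:**
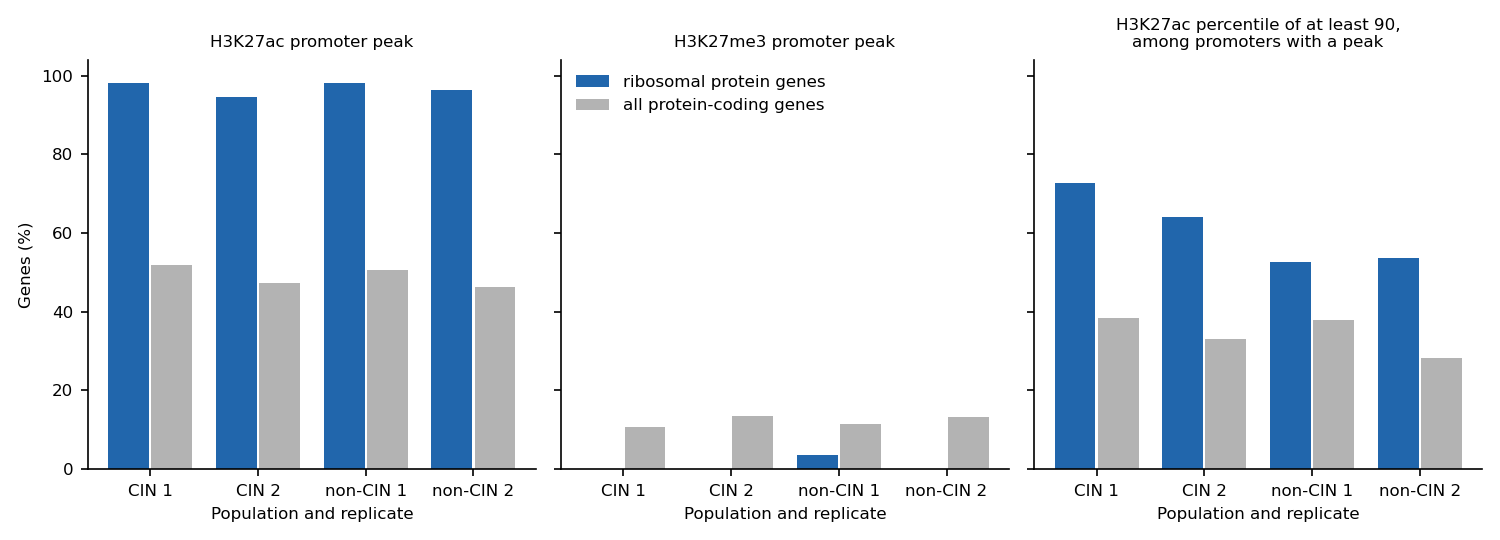
Share of genes (%) with a promoter H3K27ac peak (left), with a promoter H3K27me3 peak (middle) and, among promoters with an H3K27ac peak, with a fold-enrichment percentile of at least 90 (right), in each list of CINs and non-CINs. Blue bars are the 56 ribosomal protein genes and grey bars all protein-coding genes. The blue bars are above the grey ones for H3K27ac in every list and below them for H3K27me3.

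The 3 genes without a call in some list were *Rpl17*, *Rpl38* and *Rps10*. *Rpl17*, which encodes a 60S protein, had no promoter peak in any H3K27ac list. Its main TSS lies at position 74998558 of chromosome 18, and peaks were instead called 1597 to 3042 bp downstream of it in CIN replicate 1, 1649 to 3004 bp in CIN replicate 2, 1629 to 3315 bp in non-CIN replicate 1 and 1657 to 2999 bp in non-CIN replicate 2. These peaks cover another annotated start of the gene, the RefSeq start at 75000477, and ranked at the 94.7, 90.2, 91.6 and 79.5 percentile of fold enrichment in their lists. *Rpl17* was thus acetylated in all 4 lists, at a start other than the main one.

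*Rpl38*, a 60S gene whose loss in mice shortens the tail and alters the axial skeleton, lacked a call in replicate 2 of both populations. In replicate 1 its peak began 15 bp (CINs) or 17 bp (non-CINs) upstream of the main TSS. In replicate 2 the peak began 162 bp (CINs) or 178 bp (non-CINs) downstream of it, and therefore just beyond the promoter window. *Rps10*, a 40S gene mutated in some families with Diamond-Blackfan anaemia, lacked a call in CIN replicate 2 only. Its peak began 80, 32 and 51 bp upstream of the main TSS in CIN replicate 1 and the non-CIN replicates, and 322 bp downstream of it in CIN replicate 2. All 3 genes therefore had an H3K27ac peak nearby in every list, and what was missing was its overlap with the window.

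The sequences at the RefSeq starts of *Rpl38* and *Rps10* are shown because these calls depend on where the peak begins relative to the start. The RefSeq start of *Rpl38* is 29 bp upstream of its main TSS. With that start *Rpl38* still lacks a call in replicate 2 of both populations. RefSeq places the start of *Rps10* 301 bp downstream of the main TSS used here, and with that start *Rps10* has a call in every list. The 41 bases centred on the RefSeq start are given on the strand of the gene (GRCm38.p6, the same assembly as mm10), with the longest pyrimidine run that meets them in capitals.
Rpl38 (chr11:114668560-114668600, plus strand): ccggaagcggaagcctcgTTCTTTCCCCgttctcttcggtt
Rps10 (chr17:27635224-27635264, minus strand): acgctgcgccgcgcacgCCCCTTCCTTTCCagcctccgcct

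In both genes the start base, the central base of the window, lies inside the pyrimidine run. The run is 10 bases long in *Rpl38* and 13 in *Rps10*.

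H3K27me3 was nearly absent from the same promoters. No ribosomal protein gene had a promoter H3K27me3 peak in CIN replicate 1, CIN replicate 2 or non-CIN replicate 2, and 2 genes had one in non-CIN replicate 1. Among all genes the shares were 10.8% and 13.5% in the CIN lists versus 11.4% and 13.2% in the non-CIN lists. Over the 4 lists, 2 of 56 genes (3.57%) had a call in at least 1 list, against 16.4% of all genes.

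The 2 genes were *Rpl4*, which encodes a 60S protein that reaches into the exit tunnel, and *Rps27*, which encodes a zinc-finger protein of the 40S subunit. At *Rpl4* the H3K27me3 peak was 200 bp long, ran from 41 to 240 bp downstream of the main TSS and stood at the 85.6 percentile of its list. At *Rps27* it was 206 bp long, ran from 45 to 250 bp downstream and stood at the 62.8 percentile. The shortest peak in the list is 200 bp, so both calls were at or near the smallest size listed, and neither recurred in the other non-CIN replicate. Both genes also had H3K27ac in all 4 lists, with peaks of 1906 to 2030 bp at *Rpl4* and 1100 to 1644 bp at *Rps27* that covered the H3K27me3 calls. Their starts are shown for comparison with those above.
Rpl4 (chr9:64173367-64173407, plus strand): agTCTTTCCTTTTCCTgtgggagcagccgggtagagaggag
Rps27 (chr3:90213628-90213668, minus strand): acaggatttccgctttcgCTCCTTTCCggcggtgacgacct

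The pyrimidine run is 14 bases long and lies upstream of the RefSeq start in *Rpl4*. The main TSS of *Rpl4*, 12 bp upstream of that start, lies inside the run. In *Rps27* the run is 9 bases long and contains the RefSeq start. Away from the promoters, the median distance from the main TSS of the 56 genes to the nearest H3K27me3 peak was 28952 and 27109 bp in the CIN lists versus 16103.5 and 23143 bp in the non-CIN lists. The medians for all promoters with H3K27ac in all 4 lists were 36390, 39065, 30147 and 34786.5 bp in the same order, so the ribosomal protein genes had the shorter median in every list.

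The strength of the H3K27ac peaks was compared as a percentile, the rank of a peak's fold enrichment among all peaks of its own list, where 100 is the strongest. The median percentile of the ribosomal protein genes was 94.3 and 93.8 in the CIN lists versus 90.8 and 90.6 in the non-CIN lists. For all promoters with a peak the medians were 86.1 and 83.4 in CINs versus 85.6 and 81.3 in non-CINs. A percentile of at least 90 was reached by 40 of 55 genes in CIN replicate 1 and 34 of 53 in CIN replicate 2, and by 29 of 55 and 29 of 54 in the non-CIN lists. The shares among all promoters with a peak were 38.3% and 33% in the CIN lists versus 38% and 28.3% in the non-CIN lists. Of the 53 genes with a peak in every list, 17 stood at 90 or above in all 4, 46 at 75 or above in all 4 and 52 at 50 or above in all 4.

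**Figure D2:**
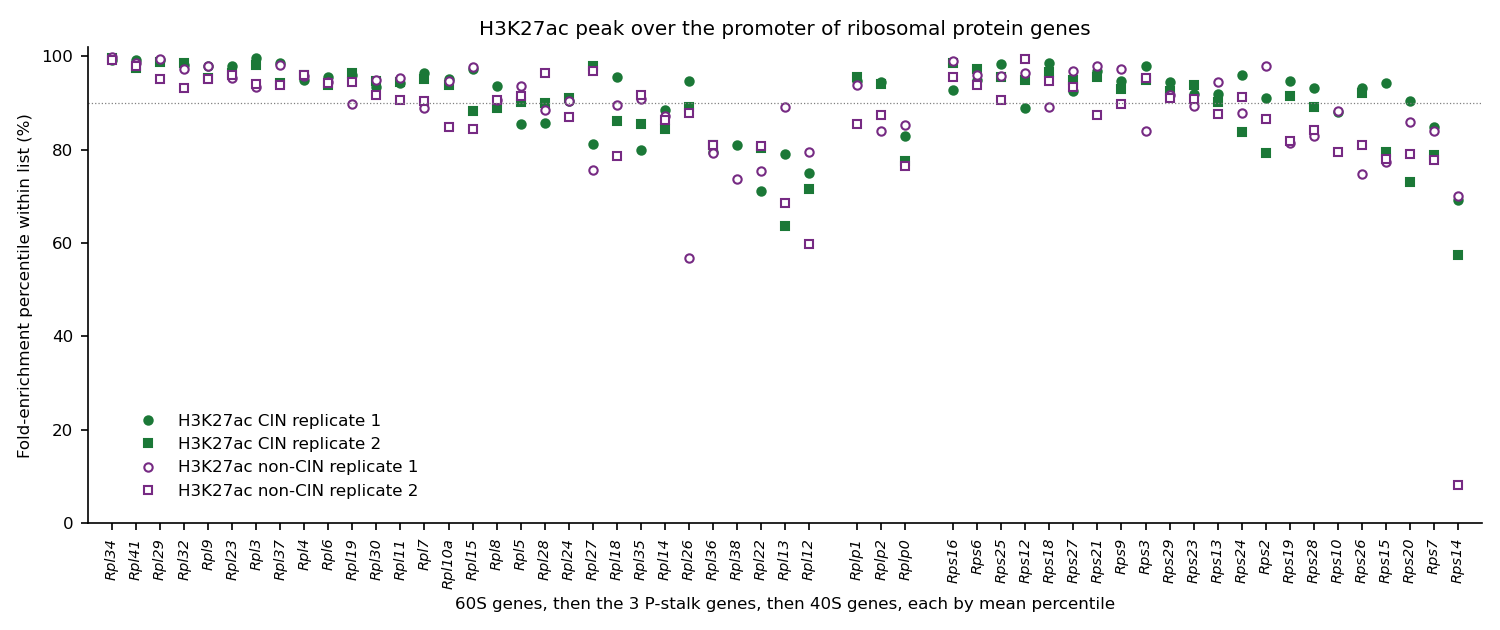
Fold-enrichment percentile (%) of the promoter H3K27ac peak of each ribosomal protein gene in each list. Filled green symbols are CIN lists, open purple symbols non-CIN lists, circles replicate 1 and squares replicate 2, and the dotted line marks the 90 percentile. Most genes lie between 75 and 100, and *Rps14*, *Rpl12*, *Rpl13* and *Rpl26* reach below 70 in at least 1 list.

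The 3 groups of ribosomal proteins had similar levels. The median of the genes' mean percentile over the 4 lists was 92.1 for the 29 genes of the 60S subunit with a peak in every list, 91.5 for the 21 genes of the 40S subunit and 89.97 for the 3 P-stalk genes. The ranges overlapped widely, from 71.4 to 99.5 in the 60S group and from 51.2 to 96.5 in the 40S group.

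All 5 genes with the highest mean percentile belonged to the 60S group. *Rpl34* stood at 99.2 and 99.6 in CINs versus 99.8 and 99.3 in non-CINs, so it was among the strongest 1% of peaks in every list. *Rpl41*, which encodes a very short basic peptide, stood at 99.3 and 97.6 in CINs versus 98.5 and 97.9 in non-CINs. *Rpl29* stood at 99.1 and 98.7 in CINs versus 99.5 and 95.2 in non-CINs. These 3 genes stayed above 95 in all 4 lists, and the populations overlapped at each of them. *Rpl32* (98.2 and 98.5 in CINs, 97.3 and 93.2 in non-CINs) and *Rpl9* (98.0 and 95.4 in CINs, 98.0 and 95.1 in non-CINs) came next. The promoter of *Rpl34*, from 250 bases upstream of its start, is given because this gene had the highest mean percentile, with the RefSeq start of *Rpl41* as a contrast.
Rpl34 (chr3:130730288-130730587, minus strand): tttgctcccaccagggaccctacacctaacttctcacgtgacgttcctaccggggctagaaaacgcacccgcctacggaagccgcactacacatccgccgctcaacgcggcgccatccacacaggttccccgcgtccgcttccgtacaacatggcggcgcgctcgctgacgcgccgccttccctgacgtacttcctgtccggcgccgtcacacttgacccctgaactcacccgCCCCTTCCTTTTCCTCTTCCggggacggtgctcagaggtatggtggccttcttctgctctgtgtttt
Rpl41 (chr10:128549148-128549188, minus strand): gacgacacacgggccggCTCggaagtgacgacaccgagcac

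*Rpl34* has a pyrimidine run of 20 bases at its start, the longest among the genes with a sequence. The run that meets the 41 bases around the RefSeq start of *Rpl41* is 3 bases long. That start lies 137 bp downstream of the main TSS of *Rpl41*, to which its percentiles belong, whereas the RefSeq start of *Rpl34* is its main TSS. Both genes had percentiles above 97 in every list.

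The 5 genes with the lowest mean percentile were *Rps14*, *Rpl12*, *Rpl13*, *Rpl22* and *Rpl36*. *Rps14*, the 40S gene whose loss on human chromosome arm 5q impairs red cell formation, stood at 69.3 and 57.4 in CINs versus 70.0 and 8.16 in non-CINs. The lowest of these values belongs to a peak of 570 bp that lay 1054 to 485 bp upstream of the main TSS and had the larger overlap with the window. A peak that covered the TSS in the same list stood at the 67.3 percentile. The main TSS of *Rps14* (position 60747671 of chromosome 18) is 26925 bp upstream of its RefSeq start, and at the RefSeq start the percentiles were 99.1 and 96.3 in CINs versus 98.7 and 96.7 in non-CINs. The low rank of *Rps14* therefore belongs to its distant upstream start.

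*Rpl12*, which encodes a protein at the base of the ribosomal stalk, stood at 74.9 and 71.5 in CINs versus 79.4 and 59.8 in non-CINs. *Rpl13* stood at 79.0 and 63.7 in CINs versus 89.2 and 68.6 in non-CINs, and replicate 1 was the higher list in both populations for *Rpl12* and *Rpl13* alike. *Rpl22*, whose protein is dispensable for translation in most cells but needed for T cell development, stood at 71.1 and 80.4 in CINs versus 75.4 and 80.9 in non-CINs. *Rpl36* was the most even of the 5 genes, at 79.4 and 81.0 in CINs versus 79.2 and 80.9 in non-CINs.

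Among the P-stalk genes, whose products recruit translation factors to the ribosome, *Rplp0* was the lowest. Its percentiles were 82.98 and 77.5 in CINs versus 85.3 and 76.6 in non-CINs, and its peak of 629 to 769 bp began 36 to 49 bp downstream of the TSS in all 4 lists. *Rplp1* stood at 94.7 and 95.5 in CINs versus 93.8 and 85.4 in non-CINs. *Rplp2* stood at 94.5 and 94.1 in CINs versus 84.0 and 87.4 in non-CINs. The populations overlapped at *Rplp0*, and both CIN values were above both non-CIN values at *Rplp1* and *Rplp2*.

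The genes kept part of their order from list to list. Spearman's rho between pairs of lists across the 53 genes ranged from 0.48 (CIN replicate 1 and non-CIN replicate 2) to 0.79 (CIN replicate 2 and non-CIN replicate 2) for the percentile. Between replicates it was 0.68 in CINs and 0.54 in non-CINs. These values describe genes within the same libraries, and genes are not independent replicates. The SD among the genes' mean percentiles was 8.22, larger than the median SD between the 2 replicates of a gene, which was 1.85 in CINs and 2.904 in non-CINs.

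The peaks spanned 1 to 2 kb at most genes. The median of the mean length over 4 lists was 1439 bp, against 1321 bp at all promoters with a peak in every list. *Rpl7* had the longest peaks (1978 and 3016 bp in CINs, 3123 and 3090 bp in non-CINs), followed by *Rpl41* (1230 and 3195 bp in CINs, 2697 and 2889 bp in non-CINs) and *Rpl18* (4498 and 1373 bp in CINs, 1533 and 2278 bp in non-CINs). The peak of *Rpl18* in CIN replicate 1 reached 3724 bp into the gene, beyond the RefSeq start 2614 bp downstream, and was more than 1.5 times as long as in any other list. At *Rpl41* the mean share of the gene inside a peak was 93.2%.

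The shortest peaks were called at *Rpl22* (1123 and 241 bp in CINs, 220 and 237 bp in non-CINs), *Rpl27* (233 and 947 bp in CINs, 207 and 1045 bp in non-CINs) and *Rpl24* (316 and 337 bp in CINs, 328 and 1663 bp in non-CINs). *Rpl24* encodes a protein of a bridge between the subunits and is mutated in the Belly spot and tail mouse. At *Rpl27*, the peak with the most bases in the window was in replicate 1 of both populations a short peak that ended 318 or 319 bp upstream of the TSS, whereas replicate 2 had a longer peak that began 26 or 12 bp upstream of it. At *Rpl24* the upstream end of the peak was alike in the 4 lists (306 to 392 bp upstream of the TSS), and the peak ended 7 to 19 bp downstream of the TSS in 3 lists and 1270 bp downstream of it in non-CIN replicate 2.

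H3K27ac at the ribosomal protein genes lay mainly downstream of the start. Over 2 kb on each side of the main TSS, the median acetylated length was 545.5 bp upstream and 1035 bp downstream for the 53 genes with a peak in every list, and 600.2 bp and 854.8 bp for the 9610 promoters with a peak in every list. More was acetylated downstream than upstream at 44 of 53 genes (83.02%), against 69.5% of the 9610 promoters. The TSS base itself was inside a peak in all 4 lists at 35 genes, in 1 to 3 lists at 14 and in none at 4. Among all promoters with a peak in every list, 65.6% had the TSS inside a peak in all 4, a share close to that of the 53 genes.

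**Figure D3:**
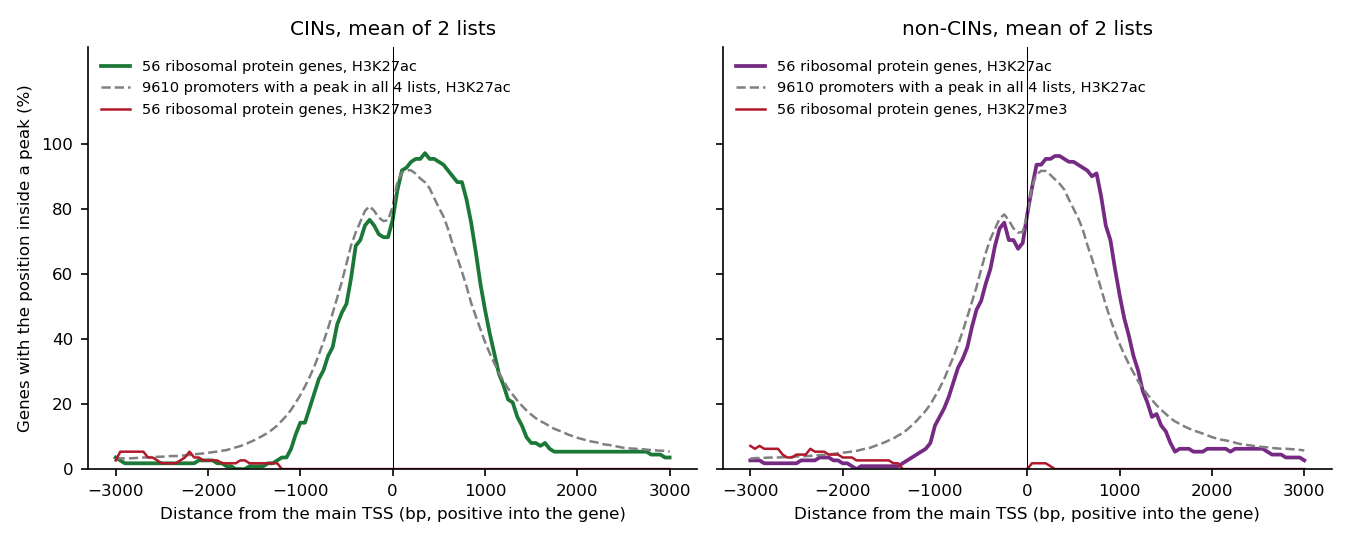
Share of genes (%) that have a given position inside a peak, by distance from the main TSS (bp, positive into the gene), as the mean of the 2 lists of CINs (left) and of non-CINs (right). Solid green or purple lines are H3K27ac and red lines H3K27me3 at the 56 ribosomal protein genes, and dashed grey lines are H3K27ac at the 9610 promoters with a peak in all 4 lists. At 300 bp downstream 95.5% (CINs) and 96.4% (non-CINs) of the ribosomal protein genes were acetylated, and H3K27me3 reached 1.79% near the start in non-CINs only through *Rpl4* and *Rps27*.

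The 4 genes with the TSS outside every peak were *Rpl5*, *Rplp0*, *Rps12* and *Rps29*. *Rpl5*, *Rplp0* and *Rps29* had 0 acetylated bases in the 2 kb upstream of the TSS in any list, and their peaks lay wholly downstream. *Rps12* had peaks on both sides of a TSS that lay in neither, in every list. Its upstream peak ended 160 and 156 bp before the TSS in CINs versus 201 and 153 bp before it in non-CINs. Such a gap between an upstream and a downstream peak within 1 kb of the TSS was found at 5 and 4 of the 53 genes in the CIN lists versus at 9 and 3 in the non-CIN lists. Among the 9610 promoters the shares were 9.41% and 12.4% in CINs versus 11.5% and 13.8% in non-CINs, beside 9.43%, 7.55%, 17.0% and 5.66% of the 53 genes in the same order.

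Ribosomal protein genes are short, and the acetylated stretch took up a large part of them. The median gene length of the 53 genes was 3368 bp, against 24487 bp for the 9610 genes, and the median share of the gene inside H3K27ac peaks was 33.1%, against 5.62%. At 11 of the 53 genes (20.8%) the share was at least 50%, against 3.38% of the 9610 genes. The promoter peak also met the promoter of another gene at 9 of 53 genes (17.0%), against 19.5% of all 9610. Examples are *Rpl4* with *Zwilch*, *Rpl9* with *Lias* and *Rps25* with *Trappc4*. At these genes a peak cannot be assigned to either promoter alone.

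The RefSeq table of promoters held 44 of the 56 genes (78.6%), fewer than the 80% set for a check over the list, so the comparison of sequence features between the list and other promoters is void and the following counts describe the 44 genes only. *Rpl3*, *Rpl7*, *Rpl8*, *Rpl17*, *Rpl29*, *Rpl30*, *Rpl32*, *Rpl36*, *Rplp1*, *Rps14*, *Rps20* and *Rps29* had no entry. The RefSeq start was within 100 bp of the main TSS in 32 of the 44 genes, so at the others sequence and peaks refer to different starts. The longest run of pyrimidines that met the 20 bases on each side of the start had a median of 9 bases in the 44 genes and of 5 in the 16521 genes of the table. It was at least 10 bases long in 19 of the 44 genes, and in 10.2% of all genes. The start base lay inside that longest run in 13 genes, and in 7.18% of all genes.

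The letters CCGGAAG, the core bound by ETS factors, were found on either strand within the 300 bases in 18 of the 44 genes, in 12.4% of all genes and in 22.2% of genes with H3K27ac in all 4 lists. In the promoter of *Rpl34* above, the reverse complement of these letters spans the end of the pyrimidine run. Of the other motifs searched, GGGCGG (bound by SP and KLF factors, either strand) was found in 23 genes and in 48.6% of all genes, CCAAT (NF-Y, either strand) in 12 and 38.5%, ATGGCGG (the YY1 core, either strand) in 6 and 5.67%, CACGTG (the E-box) in 4 and 8.09%, and TATAAA (sense strand only) in 3 and 8.64%. Among genes with H3K27ac in all 4 lists, the shares were 68.5% for GGGCGG, 40.3% for CCAAT, 10.2% for ATGGCGG, 10.5% for CACGTG and 3.55% for TATAAA. A match of letters is not evidence of binding.

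The comparison of populations asks whether the acetylation of these housekeeping promoters differed between CINs and non-CINs. In sorted pools, fewer cells with the mark and less of the mark per cell cannot be told apart. With this number of lists no ribosomal protein gene passed the test. In limma on the normal score of the percentile, with the replicate number as a block, 0% of the 9610 promoters and 0 of the 53 genes passed an adjusted *p* of 0.05. At an unadjusted *p* below 0.05, 5 of the 53 genes passed, of which 4 were higher and 1 lower in CINs, beside 13.5% of all promoters. With 2 lists on each side, an exact permutation test of a single gene cannot go below 0.333. The 95% interval of a gene's difference extended a median of 0.526 normal-score units on each side, so smaller differences could not be told from 0 even before adjustment.

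**Figure D4:**
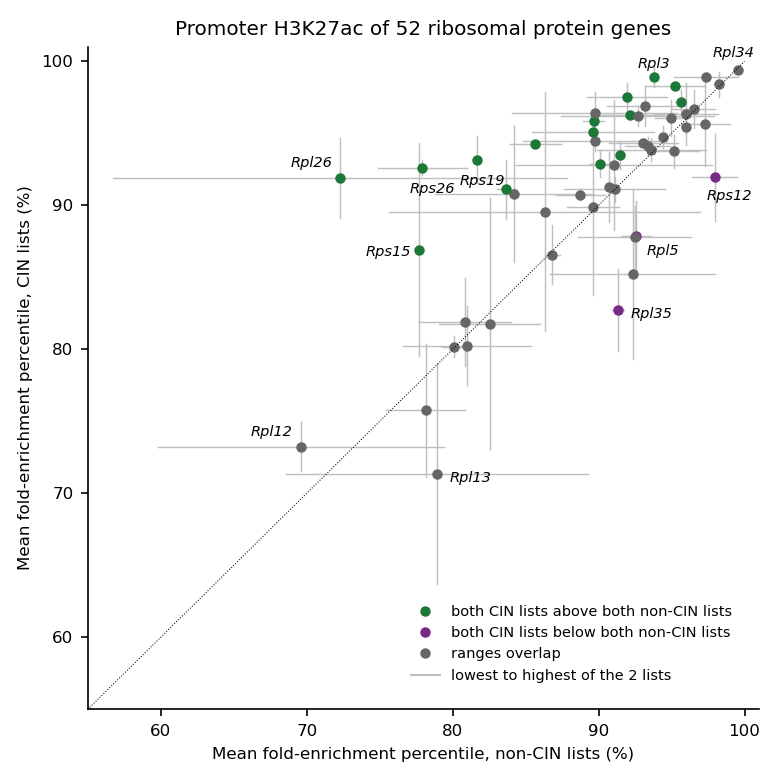
Mean fold-enrichment percentile (%) of the promoter H3K27ac peak in the 2 CIN lists against that in the 2 non-CIN lists, for 52 ribosomal protein genes. Grey lines run from the lower to the higher replicate, the dotted line marks equal values, and *Rps14* (39.1 in non-CINs, 63.3 in CINs) lies outside the axes. Most genes lie near the line at above 80 in both populations, and *Rpl26*, *Rps26* and *Rps19* lie farthest above it.

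Both CIN values were above both non-CIN values at 15 of 53 genes (21.1% of all promoters) and below them at 3 (14.1% of all promoters). The median difference of CINs minus non-CINs was 1.31 percentile points over the 53 genes and 0.761 over all promoters. It was 0.495 points in replicate 1 and 1.54 in replicate 2. For all promoters these values were 0.0240 and 1.40.

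Among genes that differed the same way in both replicates, the largest excess in CINs, in percentile points, was at *Rpl26*, *Rps26* and *Rps19*. *Rps26*, a 40S gene mutated in some cases of Diamond-Blackfan anaemia, stood at 93.1 and 92.1 in CINs versus 74.9 and 80.9 in non-CINs, a difference of 0.68 normal-score units (SE 0.23, limma adjusted *p* = 0.267). *Rps19*, the gene most often mutated in that disease, stood at 94.8 and 91.5 in CINs versus 81.4 and 81.9 in non-CINs, a difference of 0.60 (SE 0.23, limma adjusted *p* = 0.302). The groups did not overlap at either gene, and neither difference passed the test.

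*Rpl26*, which encodes a 60S protein close to the exit tunnel, stood at 94.7 and 89.1 in CINs versus 56.7 and 87.8 in non-CINs, a difference of 0.76 (SE 0.33, limma adjusted *p* = 0.371). The value of 56.7 in non-CIN replicate 1 belongs to a peak of 212 bp, against 1387 to 1591 bp in the other lists. Where peaks 500 bp or less apart were merged, the difference at *Rpl26* was -0.19 (limma adjusted *p* = 0.854), so its direction depends on how that short peak is treated.

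*Rpl3*, which encodes a protein near the peptidyl transferase centre, had the smallest *p* of the 53 genes and, in normal-score units, a larger difference than *Rpl26*, *Rps26* and *Rps19*. It stood at 99.7 and 98.2 in CINs versus 93.5 and 94.1 in non-CINs, a difference of 0.87 normal-score units (SE 0.25, 95% interval 0.29 to 1.44, limma adjusted *p* = 0.206). The 2 populations did not overlap. In fits with peaks merged at 500 bp and with peaks of −log10 *q* of at least 4, *Rpl3* was the only member of the list that passed, higher in CINs, with limma adjusted *p* values of 0.0308 and 0.0322. These fits called 3.55% and 3.13% of all promoters, so 1 of 53 genes is not above the background. The difference at *Rpl3* was 0.87 in both of them, the same as in the main fit. Their prior degrees of freedom, which set how far the variance is shared over promoters, were infinite and 45.6, against 7.08 in the main fit.

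In the opposite direction, the genes were again chosen by percentile points. *Rpl35* stood at 79.9 and 85.6 in CINs versus 90.9 and 91.8 in non-CINs (difference -0.41, SE 0.22, limma adjusted *p* = 0.459). *Rpl13* (-0.28, limma adjusted *p* = 0.636) and *Rps2* (91.2 and 79.3 in CINs, 98.0 and 86.7 in non-CINs, difference -0.50, limma adjusted *p* = 0.399) were also lower in CINs in both replicates, with overlapping ranges. *Rps12*, named here after its values were seen, was the gene below an unadjusted *p* of 0.05 in this direction, at 88.9 and 94.99 in CINs versus 96.4 and 99.5 in non-CINs (difference -0.74, SE 0.23, limma adjusted *p* = 0.238).

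The length of the promoter peaks was compared in the same way. In limma on log2 length, 0% of the promoters and 0 of the 53 genes passed an adjusted *p* of 0.05, and at an unadjusted *p* below 0.05 these were 6.48% of promoters and 0 genes. This fit has few degrees of freedom and recovered no planted change in simulated data, so its lack of calls says little. Both CIN lengths were above both non-CIN lengths at 7 of 53 genes (20.2% of all promoters) and below them at 7 (14.1% of all promoters). The median difference was -6.5 bp over the 53 genes, and it was 105 bp in replicate 1 and -95 bp in replicate 2, so the replicates went in opposite directions. For all promoters with a peak in every list it was 28.5 bp, with 54 bp in replicate 1 and -2 bp in replicate 2.

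Other housekeeping genes gave a frame for these values, read from lists of names. Of 26 other cytosolic ribosomal protein genes, 25 had H3K27ac in all 4 lists and 0 had H3K27me3 in any, with a median mean percentile of 92.7, beside 91.9 for the 53 genes. Of 38 translation factor genes, 36 had H3K27ac in all 4 lists, with a median of 92.4. Mitochondrial ribosomal protein genes (75 of 78 in all 4 lists, median 87.3) and common reference genes of quantitative PCR (14 of 14, median 87.5) stood lower, and the median of all promoters with a peak in every list was 85.1. No test was made between these lists.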

How the data were processed

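The authors aligned native ChIP reads to mm10 with BWA *mem* 0.7.15, filtered them with samtools at a mapping quality of 30 and called broad peaks with MACS2 in each replicate against its matched input (version 2.2.7 in the processing notes). Each deposited list gives for every peak a fold enrichment, a ratio of ChIP over input signal, with a −log10 *p* value and a −log10 *q* value, all computed by the authors' peak caller. None is a count, and the depth is unknown.

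Main TSSs came from GENCODE vM21 (best APPRIS principal transcript). The promoter peak was the one with the most bases in the window. Fold enrichment was ranked within its list and used as a percentile. CINs and non-CINs were compared in limma 3.58.1 (R 4.3.3) on the normal score of the percentile and on log2 length, over the 9610 promoters with a peak in all 4 H3K27ac lists, with Benjamini-Hochberg adjustment. Interval operations equalled those of bedtools 2.31.1 in simulated lists, and limma was tested on simulated data, where it found most planted changes of percentile and none of length. The size of the planted changes is not given here, so that simulation does not show whether differences as small as those observed can be found. In the main fit of the percentile, the largest difference among the ribosomal protein genes was 0.87 normal-score units, at *Rpl3*.

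The genes and lists were chosen with earlier results of these data known. The genes named are those with a missing H3K27ac call or an H3K27me3 call, the 5 highest and 5 lowest percentiles, the 3 longest and 3 shortest peaks, those past 0.05 in any fit, the 3 with the largest difference in percentile points in each direction among those with both replicates alike, and the P-stalk genes. Alternatives were other windows, starts, peak thresholds and merging, no replicate block and each list left out. Each sample is a pool of litters, and *p* values measure only the spread between the labelled replicates. Some marker values are not reported here.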

Additional observations from a re-analysis of the deposited data

How the results depend on the processing

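H3K27ac in all 4 lists was found at 53 genes, at 35 where a peak had to cover the TSS base and at 28 where it had to cover 50% of the window. H3K27me3 in at least 1 list was found at 2 genes, at 0 under both of those settings, and at 0 to 2 with a list left out (0 without non-CIN replicate 1). The median percentile in CINs was 94.0, and it was 93.2 with a window of 1 kb on each side and 89.3 with the 30000 strongest peaks of each list. In non-CINs it was 90.7, and it was 92.3 with merged peaks, 91.1 with the longest peak in the window, 91.5 with the wider window, 83.6 with the 30000 strongest peaks and 91.2 from the RefSeq start, an alternative chosen after seeing the data. The median length in CINs was 1484.5 bp, and 1609 bp with merged peaks.

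The fit of the percentile called 0 promoters, 341 with merged peaks and 285 at −log10 *q* of at least 4, with 1 ribosomal protein gene (*Rpl3*) in each of these, and 0 to 13 promoters with a list left out (8 without CIN replicate 1, 13 without CIN replicate 2 and 1 without non-CIN replicate 1), with no ribosomal protein gene among them. The fits with a list left out also drop the replicate block, which 3 lists cannot carry, and assume that the lone list of a population varies like the pair of the other, so the change cannot be assigned to the list left out. The causes were not tested. Without the replicate block 0 promoters were called for the percentile and 0 for the length. Deviations of lists with the same replicate number correlated at 0.29 for the percentile and 0.38 for the length across promoters, and the labels do not say that a number marks a shared pool. In all, 62 of the alternative values kept their direction and their side of the threshold or moved by less than the spread between replicates, 8 medians moved by more, and among the counts 7 rose and 5 fell by more than 1.5 times.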

Other observations

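An H3K27me3 peak lay within 5 kb of the main TSS in every list at 4 genes, *Rpl6*, *Rpl17*, *Rpl26* and *Rpl38*. *Rpl6* and *Rpl26* had promoter H3K27ac in all 4 lists, whereas *Rpl17* and *Rpl38* lacked a call in some. *Rps10*, which also lacked a call, had its nearest H3K27me3 peak 16869 to 19531 bp away. At *Rpl26* the nearest peak was 1217 to 1382 bp from the TSS, and at *Rpl6* it was 3994 to 4556 bp from it. At *Rpl38* a peak of 430 to 587 bp lay about 2.5 to 3.2 kb upstream, from 3104 to 2518 bp in CIN replicate 1, 3164 to 2683 bp in CIN replicate 2, 3044 to 2615 bp in non-CIN replicate 1 and 3157 to 2677 bp in non-CIN replicate 2. Its fold-enrichment percentiles were 70.0 and 88.5 in CINs versus 82.8 and 92.9 in non-CINs. At *Rpl17* a peak of 740 to 1161 bp lay farther upstream, from 4173 to 3434 bp in CIN replicate 1, 4580 to 3420 bp in CIN replicate 2, 4496 to 3479 bp in non-CIN replicate 1 and 4541 to 3385 bp in non-CIN replicate 2, with percentiles of 96.1 and 95.2 in CINs versus 94.8 and 92.7 in non-CINs. These are the peaks found at a like place in all 4 lists, and others lay closer to the TSS in some of them. The nearest H3K27me3 peak was 2518 and 1593 bp from the TSS of *Rpl38* in CINs versus 2615 and 1856 bp in non-CINs, and 3434 and 2542 bp from that of *Rpl17* in CINs versus 2681 and 2331 bp in non-CINs. Which gene the stretches belong to was not tested. Within 5 kb of the main TSS, 5 and 8 of the 56 genes had an H3K27me3 peak in the CIN lists versus 8 and 8 in the non-CIN lists, against 15.7% to 21.8% of all promoters with H3K27ac in every list.

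The number of ribosomal protein genes with H3K27ac in all 4 lists was 53 from the main TSS and 53 from the RefSeq start, but the genes were not the same. From the RefSeq start, *Rpl17* gained calls in all 4 lists and *Rps10* that of CIN replicate 2, the list it had lacked, whereas *Rpl22* lost that of CIN replicate 1 and *Rpl27* those of replicate 2 in both populations.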
